A study of Mus musculus with 12 samples.

Results

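Intronic cytosines of CpG dinucleotides that lie far from promoters were examined in the brain methylation profiles of Wt and Tg2576 (Tg) mice. A site is here a cytosine on 1 strand. Sites were taken when they were autosomal, were covered by 10 or more reads in all 12 libraries, lay over 5000 bp from every transcript start, and fell inside a gene but outside all exons of the GENCODE vM21 basic gene set on the mm10 genome. Of the 980547 sites with that coverage, 40757 (4.16%) met the rule, and they lay in 4867 genes.

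Each of the 12 libraries came from 1 mouse labelled as 11 months old, and from tissue that held both hippocampus and cortex. The 4 Wt animals, labelled wild type, were 3 females and 1 male, and the 8 Tg animals were 4 females and 4 males. Tg2576 mice carry a human amyloid precursor protein (APP) transgene with a familial Alzheimer's disease mutation, expressed from a prion protein promoter, and so model overproduction of amyloid rather than the loss of neurons or the late-onset disease. The mice came from a commercial supplier, and the labels give no treatment, litter, batch or strain background.

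Methylation of CpG cytosines is copied at cell division and is high over most of the mammalian genome, while dense clusters of CpGs (CpG islands) are usually kept free of it. Introns hold most of the sequence of a gene. They contain enhancers, transposable elements, alternative promoters and CpG islands that no annotated start accounts for, and in neurons the bodies of expressed genes are generally methylated. Reduced representation bisulfite sequencing (RRBS) cuts DNA at CCGG and sequences short fragments, so it sees the CpG-rich portion of introns and little of the CpG-poor remainder. Bulk tissue averages over neurons and glia, and an intermediate level in it can mean a mixture of cells, a mixture of alleles or both.

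Depth and labels set limits on what follows. Coverage summed over the listed cytosines of chromosomes 1 to 19 and X, in which a read counts once for each CpG it spans, was lowest in Tg female 4 (29128587) and highest in Tg female 1 (116610464), and the median coverage of an intronic site ran from 18 to 54 reads. At a single site the counting error of 1 animal is therefore several percentage points, whereas means over all members average out most of it. Bisulfite reads carried no molecular identifiers, so intervals of counting would understate the error. The comparisons below use the spread between animals, except the binomial model, which takes reads as independent. Wt female 1 and Tg female 1 stood apart with the highest intronic levels, and the genotype differences in mean level are also given without them. The library labelled Wt male had a mean level of 19.9% at X-linked sites, close to the 20.7% to 23.0% of the libraries labelled female and far from the 5.50% to 5.67% of the Tg males. It was kept under its label, and is called the library labelled Wt male.

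Sequences of 10 intervals show what these introns look like at the level of the bases (mm10, plus strand, 5′ to 3′). The first was chosen among the intronic stretches with the lowest methylation. Atp8a2, a gene of a phospholipid flippase on the minus strand, holds a stretch of 40 sites in its first intron, printed at chr14:60177589-60177724. Capitals mark the CpGs with a member site, here 21 of 21.
Atp8a2: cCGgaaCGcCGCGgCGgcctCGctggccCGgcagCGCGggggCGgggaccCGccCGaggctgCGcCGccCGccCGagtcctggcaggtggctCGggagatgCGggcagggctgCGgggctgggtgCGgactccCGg

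The next set had pooled levels between 35% and 65% with the smallest spread between animals. Zfr2, a gene of a zinc finger RNA-binding protein, is shown in intron 3 at chr10:81239613-81239912. Rbfox3, whose splicing factor product is the neuronal marker NeuN, is shown in its first intron at chr11:118891340-118891639. Nphp4, a gene of the cilium base, is shown in intron 17 at chr4:152547910-152548184. These intervals were less dense, with 8, 19 and 17 CpGs, and capitals again mark the CpGs with a member site.
Zfr2: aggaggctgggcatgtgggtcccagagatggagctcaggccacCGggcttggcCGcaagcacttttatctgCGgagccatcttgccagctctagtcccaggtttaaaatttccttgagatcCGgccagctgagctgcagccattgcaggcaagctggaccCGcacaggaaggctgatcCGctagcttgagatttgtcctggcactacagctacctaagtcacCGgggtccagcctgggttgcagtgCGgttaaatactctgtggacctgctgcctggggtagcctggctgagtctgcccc
Rbfox3: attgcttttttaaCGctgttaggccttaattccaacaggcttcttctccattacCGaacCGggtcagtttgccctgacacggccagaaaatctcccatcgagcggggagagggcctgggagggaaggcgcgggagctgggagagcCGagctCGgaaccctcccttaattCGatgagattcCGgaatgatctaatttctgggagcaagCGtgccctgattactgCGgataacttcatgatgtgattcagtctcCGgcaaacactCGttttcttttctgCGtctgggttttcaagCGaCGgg
Nphp4: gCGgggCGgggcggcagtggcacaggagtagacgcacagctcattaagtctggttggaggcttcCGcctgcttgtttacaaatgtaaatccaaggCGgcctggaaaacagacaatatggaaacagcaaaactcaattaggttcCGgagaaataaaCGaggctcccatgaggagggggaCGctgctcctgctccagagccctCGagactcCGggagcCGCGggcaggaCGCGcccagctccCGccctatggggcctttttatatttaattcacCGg

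Another pair came from the stretches that varied most between animals. Btc encodes betacellulin, a ligand of the epidermal growth factor receptor, and is shown in intron 2 at chr5:91368232-91368351. Galnt7 encodes a glycosyltransferase that extends mucin-type O-glycans, and is shown in intron 2 at chr8:57560666-57560801. They held 6 and 8 CpGs, each with a member site.
Btc: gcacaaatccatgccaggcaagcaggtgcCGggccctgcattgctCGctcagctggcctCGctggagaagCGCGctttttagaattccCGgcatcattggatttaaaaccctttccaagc
Galnt7: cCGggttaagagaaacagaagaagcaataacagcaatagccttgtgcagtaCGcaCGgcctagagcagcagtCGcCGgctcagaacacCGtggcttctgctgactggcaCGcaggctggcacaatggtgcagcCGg

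The last set holds the 4 CpGs at which both strands differed in the same direction between genotypes and the animals of the groups did not overlap. Here the CpG in question alone is in capitals, in a window of 120 bases. Hspg2 encodes perlecan, a heparan sulfate proteoglycan of basement membranes (chr4:137502991-137503110, intron 3). Gm805 is a long intergenic non-coding RNA gene (chr12:86189922-86190041, intron 4). Adamtsl2 encodes a secreted glycoprotein that binds fibrillin (chr2:27088409-27088528, intron 8), and Rnd3 a regulator of the actin cytoskeleton (chr2:51140640-51140759, intron 2).
Hspg2: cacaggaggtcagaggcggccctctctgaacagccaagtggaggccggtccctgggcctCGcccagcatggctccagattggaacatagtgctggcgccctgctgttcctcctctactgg
Gm805: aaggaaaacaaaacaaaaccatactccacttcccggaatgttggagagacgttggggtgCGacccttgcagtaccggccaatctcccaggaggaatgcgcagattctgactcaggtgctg
Adamtsl2: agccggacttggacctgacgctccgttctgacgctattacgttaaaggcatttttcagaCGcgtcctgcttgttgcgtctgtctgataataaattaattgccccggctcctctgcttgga
Rnd3: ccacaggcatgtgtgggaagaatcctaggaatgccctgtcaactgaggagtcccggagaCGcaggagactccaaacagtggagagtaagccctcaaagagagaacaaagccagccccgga

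Intronic sites were mostly lowly methylated in this assay, with a broad tail. Pooling the reads of the 12 animals, 23140 sites (56.8%) were below 20%, 12692 (31.1%) were between 20% and 80%, and 4925 (12.1%) were above 80%. At the low end, 2026 sites (4.97%) had no methylated read in any animal. The mean level over all members was 27.7% ± 1.68 (SD, n = 12 animals), and the median site level was 12.02% ± 2.46. Neighbouring sites had similar levels: the median difference in pooled level was 1.38 points between members 1 to 10 bp apart, 7.25 points at 51 to 300 bp and 28.7 points at over 10000 and up to 100000 bp. For 8049 CpGs both strands were members, and the strands were within 10 points of each other at 96.3% of them. Members of 1 CpG or 1 stretch are thus not separate observations.

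By animal, the highest mean intronic level of the Wt group was 31.0%, in Wt female 1, followed by 26.4% in both Wt females 2 and 3 and by 25.6% in the remaining library, labelled Wt male. The Tg animals had a lowest value of 26.6%, a median of 27.5% and a highest value of 30.7%, the last in Tg female 1. Wt female 1 and Tg female 1 were the highest in their groups, and the remaining 10 animals lay between 25.6% and 28.4%. Over the sites with a pooled level of 20% to 80%, their means were 51.4% and 50.8%, against 39.7% to 45.9% in the other animals, and over the sites below 20% they were 6.82% and 6.80%, against 4.05% to 5.46%. Over the sites above 80%, all 12 libraries were within 90.5% to 91.7%. Of the 598 intronic stretches with at least 10 sites, 67 had these 2 libraries above the other 10, while the next most frequent pair was on top in 26. What distinguishes these animals was not tested.

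**Figure D1:**
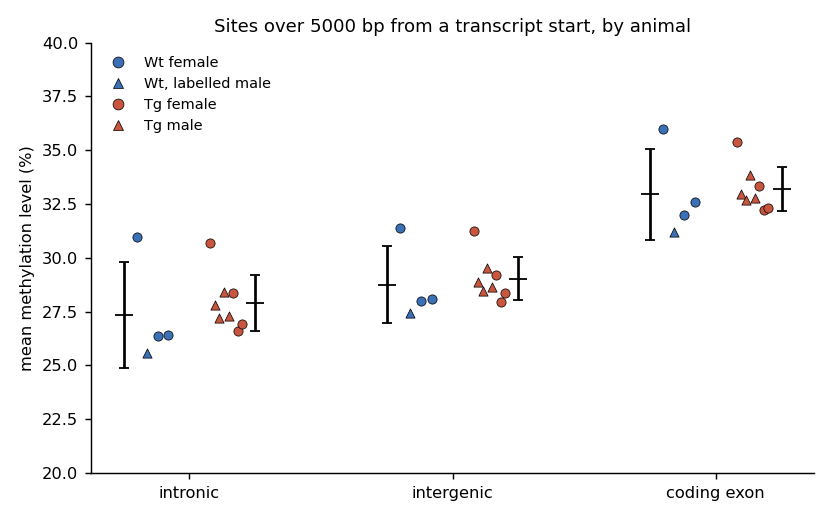
Mean methylation level (%) of intronic, intergenic and coding-exon sites over 5000 bp from a transcript start, 1 point per animal (blue Wt, red Tg, circles labelled female, triangles labelled male), with group means and SD as bars; the vertical axis starts at 20%. Wt female 1 and Tg female 1 lie above their groups in each context, and intronic levels of the other 10 animals span 25.6% to 28.4%.

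Local CpG density ordered the intronic levels. The 3320 members with at most 4 CpGs in the 300 bp around them averaged 42.9% ± 2.65 (SD, n = 12), the 14982 with 5 to 9 averaged 40.1% ± 2.64, and the 7384 with 10 to 14 averaged 34.7% ± 2.05. The level was lower still in denser sequence, at 23.8% ± 1.03 with 15 to 19 CpGs, 11.1% ± 0.407 with 20 to 24 and 1.79% ± 0.104 with 25 or more. This last class, with the density of a CpG island, made up 21.9% of all members, and 99.0% of its 8934 sites were below 20%. Its order relative to the first class was the same in each animal, since the highest value of any animal in it was 1.94% and the lowest in the first class was 39.7%. The SD between animals was smallest where the level was lowest.

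Low intronic levels were found both with and without an additional transcript start nearby. The basic gene set leaves out many transcripts of the comprehensive GENCODE set, and 8823 members (21.6%) were within 1000 bp of a start of the latter. These had a mean level of 9.80% ± 0.485 (SD, n = 12), against 32.8% ± 2.07 for the 27861 members over 5000 bp from any start in either set (difference -23.0 points, lower in 12 of 12 animals, two-sided exact sign-flip test, p = 0.000488, the smallest this test can give, and adjusted p = 0.000597 over 11 such comparisons). At 25 or more CpGs the contrast was small, with 1.36% near such starts and 2.14% for the 3297 members over 5000 bp away (difference -0.781 points, 12 of 12 animals, exact sign-flip adjusted p = 0.000597). At 5 to 9 CpGs the levels were 38.7% and 39.9% (difference -1.21 points, 11 of 12 animals, exact sign-flip adjusted p = 0.00146). In between, the levels were further apart: with 10 to 14 CpGs they were 27.9% near such starts and 35.6% away from them, with 15 to 19 CpGs 10.3% and 29.1%, and with 20 to 24 CpGs 4.02% and 16.2%. No test was made within these 3 classes. In each of them, the highest animal near a start was below the lowest animal away from one, so the presence of a start went with a lower level mainly at intermediate density.

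Position within the gene and repeats also went with the level. Members in a first intron averaged 24.1%, and those in later introns 33.0% (difference -8.89 points, lower in 12 of 12 animals, exact sign-flip adjusted p = 0.000597), and among sites with 5 to 9 CpGs the difference was -6.99 points. By intron number the mean was 24.1% in intron 1, 26.3% in intron 2, 29.5% in intron 3, 34.9% in introns 4 to 9 and 41.9% in intron 10 or later. The 3066 members within 100 bp of an exon had 37.2%, and the 13057 over 10000 bp from one had 24.8% (difference 12.4 points, higher in 12 of 12 animals, exact sign-flip adjusted p = 0.000597). Soft-masked repeats, largely remnants of transposable elements, held 2772 members with a mean of 61.7% ± 1.15 (SD, n = 12), against 25.2% ± 1.72 outside them. Among sites with 5 to 9 CpGs the repeat difference was 18.7 points in place of 36.5 (each with an exact sign-flip adjusted p of 0.000597). A further 3989 members lay in a gene but in no intron of a basic transcript, for instance where a gene's span joins transcripts that do not overlap, and these had 9.49% ± 0.581.

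By chromosome, the mean ranged from 21.3% over 3566 members on chromosome 11 to 34.7% over 1316 on chromosome 3. Members in protein-coding genes (36064) averaged 27.9% and the remainder 26.6%, a difference of -1.30 points for non-coding genes (12 of 12 animals, exact sign-flip adjusted p = 0.000597). Cytosines on the strand of the gene averaged 27.3% and those on the opposite strand 27.7%, which is -0.445 points (11 of 12 animals, exact sign-flip adjusted p = 0.00107). Both of these differences were smaller than the SD of the mean level between animals.

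Whether introns are methylated like the other sequence far from promoters was asked against intergenic and coding-exon sites at the same distance, within each animal. The mean difference was -1.22 points against 41252 intergenic sites (27.7% and 28.9%, SD of the difference 0.448, lower in 12 of 12 animals, exact sign-flip p = 0.000488, adjusted p = 0.000570 over 14 comparisons), but its direction depended on which sites were compared. Outside repeats intronic sites were higher by 3.24 points, and inside repeats they were lower (a difference of -14.3 points over 2772 and 5301 sites). The median site level was higher in introns by 2.60 points, and a minimum of 20 reads also turned the sign, to 0.525 points over 9206 intronic sites. By density, intronic sites were lower at 0 to 4 CpGs (42.9% and 50.8%) and at 15 to 19 CpGs (23.8% and 28.8%), and higher at 10 to 14 CpGs (34.7% and 34.0%, 9 of 12 animals, exact sign-flip adjusted p = 0.00841). Intronic sites were also lower at 5 to 9 CpGs (a difference of -1.62 points) and at 20 to 24 (-2.60), so that 4 of the 6 density classes had the lower level in introns. With both contexts weighted to the same spread over density the difference was -1.99 points, and over 10000 bp from a start it was -3.27. The direction thus varied with repeats, density and coverage.

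The difference from coding exons was larger, and larger still at matched density. Intronic sites were lower than 19236 coding-exon sites on average (27.7% and 33.1%, difference -5.40 points, SD 0.390, 12 of 12 animals, exact sign-flip adjusted p = 0.000570), although the exonic sites were the denser, with a median of 21 against 10 CpGs per 300 bp. At matched density the difference was -20.9 points at 0 to 4 CpGs, -21.0 at 5 to 9, -23.1 at 10 to 14 and -21.7 at 15 to 19, and -7.80 points at 25 or more (each 12 of 12 animals, exact sign-flip adjusted p = 0.000570). In the 348 protein-coding genes with at least 5 sites of each kind, a comparison added after the data were seen, the introns averaged 29.7% and the coding exons 45.6% (difference -15.9 points, SD 0.374, n = 12), and 237 genes (68.1%) had the lower level in their introns. Exceptions were the sites in repeats, where the introns were higher by 38.0 points but coding exons had only 328 sites, and the 9206 intronic and 4466 coding-exon sites with 20 reads in all animals, where the difference was -0.0104 points (exact sign-flip p = 0.909). In the latter subset the median density was 20 CpGs in introns and 31 in exons. The size also moved with the distance from starts, to -1.08 points for sites over 2000 bp away and -11.8 points for those over 10000 bp away.

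**Figure D2:**
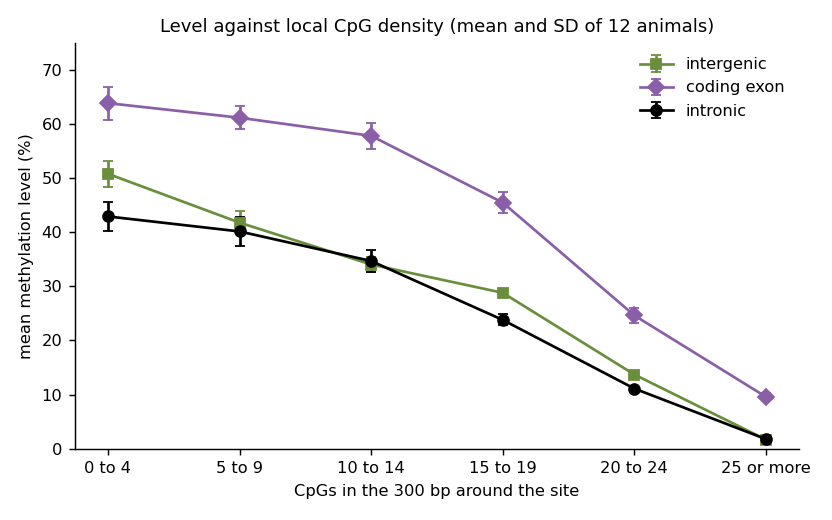
Mean methylation level (%, mean and SD of 12 animals) against the number of CpGs in the 300 bp around a site, for intronic, intergenic and coding-exon sites over 5000 bp from a start. Intronic levels fall from 42.9% at 0 to 4 CpGs to 1.79% at 25 or more, are below the intergenic 50.8% in the sparsest class and lie below the coding-exon line in every class.

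Stretches show how far such states extend. Sites with gaps of at most 300 bp were joined, which gave 4103 intronic stretches of at least 3 sites, with a median length of 78 bp. Among the 598 with at least 10 sites, 390 had a pooled level below 10%, 163 were from 10% to 35%, 29 from 35% to 65% and 16 above 65%. Of the 390 low stretches, 154 had a start of the comprehensive set within 1000 bp and 205 had none within 5000 bp. The SD over animals had a median of 2.21 points and a 90th percentile of 8.69 points. In 300-bp windows centred on the stretches (both strands searched, motifs may overlap), a core of the motif of the insulator protein CTCF (CC, 3 free positions, AGG, 1 free position, GGC) was present in 7.69% of the 390 low stretches and in 3.53% of all 4103, which were less dense, with a median of 9 against 22 CpGs. The E-box CACGTG was found in 7.69% and 6.19%, the cAMP response element TGACGTCA in 1.28% and 0.463%, and the letters GCATGCGC of the NRF1 motif in 1.28% and 0.975%. With at least 10 sites, stretches from 10% to 35%, from 35% to 65% and above 65% held the CTCF core in 3.68%, 3.45% and 12.5%. The E-box was found in 4.91%, 10.3% and 6.25% of them. These are counts of letters, over only 16 stretches in the highest class, and no test was made of them.

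**Figure D3:**
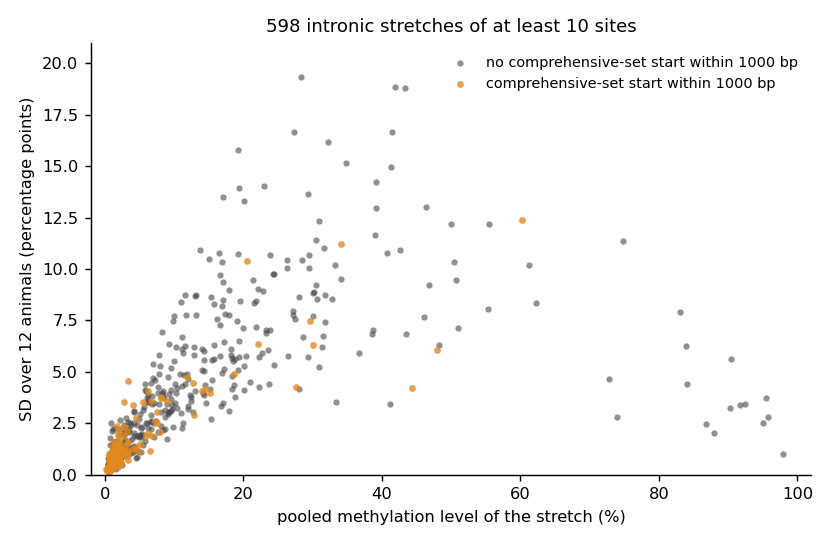
Pooled methylation level (%) of 598 intronic stretches with at least 10 sites against the SD of the level over 12 animals (percentage points); orange points have a comprehensive-set start within 1000 bp. Most points crowd below 10% with small SD, and the largest SD of 19.3 points is at an intermediate level.

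The least methylated stretches were chosen by their level, so their values are a description. The Atp8a2 stretch printed above (chr14:60177590-60177723) had a pooled level of 0.431%, with a highest value of 0.762% and no methylated read in 1 animal, over 968 to 2394 reads, and a comprehensive-set start was 51 bp away. Elmsan1, a gene of a histone deacetylase complex subunit (chr12:84175741-84175802, 0.461%), and Ets1, a transcription factor gene (chr9:32672125-32672344, 0.519%), had only 12 sites each, with 13 and 16.5 CpGs per 300 bp, and no start of either set within 12004 and 23678 bp. The other members of the set were in Tjp1, the tight-junction scaffold ZO-1 (0.223%), Mylk, a myosin light chain kinase (0.375%), Sh3d19, an SH3 domain adaptor (0.485%), and Bicral, a chromatin remodelling subunit, whose 97 sites spanned 773 bp at 0.523%. Each of these lay within 1000 bp of a comprehensive-set start. Only the Atp8a2 and Elmsan1 stretches lay in an intron of a basic transcript. Those in Tjp1, Mylk, Sh3d19, Ets1 and Bicral lay in the span of the gene but in no such intron. Members of that kind, 3989 in all, averaged 9.49%. No animal exceeded 1.37% at any of these 7 stretches.

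Stretches at 35% to 65% with the smallest spread were also chosen by their values. Their SD over the 12 animals was 3.46 to 6.82 points. Zfr2 (chr10:81239606-81239919, 15 bp from an exon) had a pooled level of 41.2%, with a lowest value of 35.01%, a median of 41.3% and a highest of 46.4%. Ptprs, a receptor tyrosine phosphatase of synapses (chr17:56425033-56425321), had 44.4%, with 37.7% to 49.8%. In Rbfox3 (chr11:118891252-118891726, 17578 bp from an exon) the 25 sites had a pooled level of 36.7%, and the values were 46.3%, 32.8%, 30.1% and 28.4% in Wt females 1 to 3 and the library labelled Wt male, against a median of 39.8% in Tg with a range of 29.5% to 43.1%. Tg female 1 was the lowest Tg animal at both Ptprs and Rbfox3. Cux2, a transcription factor gene of upper cortical layers (48.0%, 34.8% to 55.2%), Nphp4 (48.3%, 38.9% to 59.5%) and Unc5b, a netrin receptor (38.6%, 27.1% to 48.4%), completed the set. A comprehensive-set start was 25 bp from the Ptprs stretch, which was 6 bp from an exon, and 764 bp from the Cux2 stretch. For the rest of the set the nearest such start was 2563 to 44997 bp away.

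At the stretches chosen for the largest spread, Wt female 1 and Tg female 1 were mostly on top. At Btc (chr5:91368261-91368321, 10 sites) Wt female 1 had 51.9%, Wt females 2 and 3 had 24.6% and 19.6%, and the library labelled Wt male had 13.1%. In Tg the lowest was 9.41%, the median 29.8% and the highest, in Tg female 1, 76.1%. At Galnt7 (chr8:57560667-57560800, 11 sites) Wt female 1 had 79.8% and Tg female 1 had 72.5%, and the other 10 animals had 25.6% to 44.2%. Wt female 1 was the highest Wt animal at all 6 stretches of this set, and Tg female 1 was the highest Tg animal at 5, the exception being Eya2, a transcriptional coactivator gene, where Tg female 4 had 52.0% and Tg female 1 had 30.9%. The other stretches were in Tcf4, a basic helix-loop-helix factor gene of neurons (SD 18.8 points), Vstm2a (SD 18.8 points, 90.9% of its sites in repeats) and the long non-coding RNA gene Gm29266 (SD 16.2 points). These stretches had 9 to 15 CpGs per 300 bp and pooled levels of 27.4% to 43.4%.

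**Figure D4:**
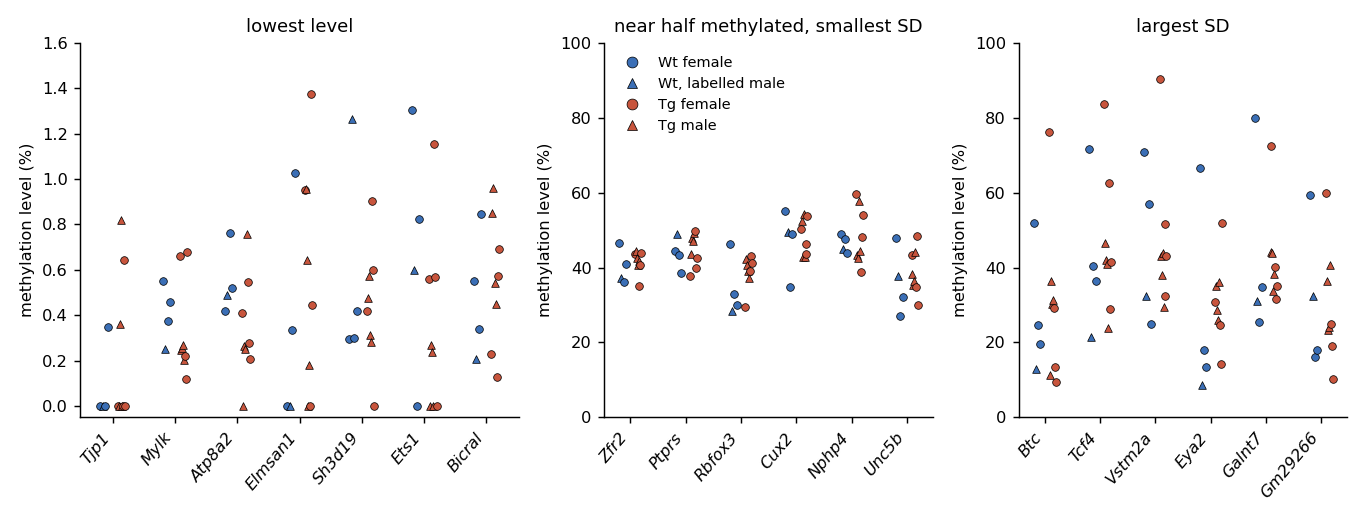
Methylation level (%) by animal at the intronic stretches with the lowest levels (left, axis to 1.6%), at those from 35% to 65% with the smallest SD (middle) and at those with the largest SD (right), each point 1 animal (blue Wt, red Tg, circles labelled female, triangles labelled male). At the right, the highest points of Galnt7 are Wt female 1 at 79.8% and Tg female 1 at 72.5%, and at the left no animal exceeds 1.37%. Of the stretches at the left, those of Atp8a2 and Elmsan1 lie in an intron of a basic transcript and the others in none.

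Members were spread thinly over genes, with a median of 4 per gene, and 144 genes had 50 or more. Gm20388, annotated as a protein-coding gene on chr8:119910841-124345722, a span that also contains Gse1 and other genes, held 909 sites at 26.3% ± 2.54 (SD, n = 12). Lncppara, a processed transcript gene on chromosome 15, held 381 at 1.73% ± 0.573, none within 1000 bp of a comprehensive-set start. Rbfox3 held 314 at 10.8% ± 1.24, of which 215 were within 1000 bp of such a start, and Begain, a gene of a postsynaptic density protein, 262 at 2.11% ± 0.361, of which 223 were. Gse1, a coregulator gene, had 16.2%, Zmiz1, a transcriptional coactivator gene, 2.25%, Rnf220, a ubiquitin ligase gene, 13.7%, and Macrod1, a gene of an enzyme that removes ADP-ribose, 9.51%. Of the 220 Zmiz1 sites 198 were within 1000 bp of such a start, against 5 of 235 in Gse1, 8 of 191 in Rnf220 and 0 of 186 in Macrod1. Among the 2000 genes with at least 5 sites, the median of the gene means was 32.1%, 210 genes were below 5% and 154 above 80%.

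Gene lists drawn from textbook knowledge are described by counts. Of 10 neuron markers 5 had member sites, 351 in all, with a mean of 12.4%, and 314 of these sites were in Rbfox3. The other neuron genes with at least 5 sites were Grin2b, an NMDA receptor subunit (6.64%), Camk2a, a synaptic kinase (47.6%), and Syt1, a synaptic vesicle calcium sensor (45.3%). Oligodendrocyte markers had 21 sites at 23.99% (Mbp, myelin basic protein, 23.9%), astrocyte markers 9 sites at 53.9%, microglia markers 12 sites at 43.1% (the chemokine receptor Cx3cr1, 45.1%) and endothelium markers 28 sites at 42.9% (Flt1, a VEGF receptor, 42.6%). Among 38 synaptic adhesion and scaffold genes 27 had sites, 545 in all at 20.3%, from Shank1, a postsynaptic scaffold (0.726%, 89 sites), and Rims1, an active zone protein (4.38%, 158 sites), to Dlgap2, a scaffold-associated protein (34.2%). All 89 Shank1 sites were within 1000 bp of a comprehensive-set start, and 0 of those of Rims1 and Dlgap2 were. The 65 extracellular matrix and collagen genes had 329 sites at 43.7%, with Tnr, tenascin-R of perineuronal nets, at 14.9% and the proteoglycan gene Spock1 at 36.1%. The 44 secretion genes had 112 sites at 40.8%, and the 59 imprinted genes 479 at 11.3%, most of them in Begain, with the potassium channel gene Kcnq1 at 51.7% over 33 sites. In Begain 223 of 262 sites were within 1000 bp of a comprehensive-set start, and in Kcnq1 0 were. Methylation in these introns is no readout of which cells were present, and the lists differ in density, with medians of 28 CpGs per 300 bp for neuron and 7 for matrix genes.

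Whether the transgene goes with a shift in intronic methylation was asked first of the mean. Wt animals averaged 27.3% ± 2.46 (SD, n = 4) and Tg animals 27.9% ± 1.30 (SD, n = 8). The gap of 0.579 points lay within the spread between animals, and weighting sites by their reads made it 1.595 points (exact permutation p = 0.0646). A two-sided exact permutation test gave p = 0.616 over all 495 splits, and p = 0.611 over the 175 splits that keep the labelled sexes. The latter take the library labelled Wt male as a male, which its X-linked level leaves in doubt. In the 7 females it was 0.229 points (exact permutation p = 0.771, where 35 splits give 0.0286 as the smallest possible p). This comparison turned on 1 library. Without Wt female 1 the difference was 1.79 points (exact permutation p = 0.0485), leaving out the library labelled Wt male gave -0.00298 points (exact permutation p = 1), and without both Wt female 1 and Tg female 1, an alternative chosen after seeing the data, it was 1.39 points (exact permutation p = 0.0167 over 3 Wt and 7 Tg). The contrast between contexts moved in the same way. The intronic minus intergenic level was -1.41 points in Wt and -1.13 in Tg, a difference of 0.283 points (exact permutation p = 0.323), and 0.613 points (exact permutation p = 0.0182) without Wt female 1. No adjustment was made for the 12 fits that leave out an animal.

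Site by site, the binomial model, which adjusts for sex and counts each read as independent, called 3741 of the 40757 members (9.18%) at an adjusted p under 0.1 and a difference of at least 10 points, beside 1.72% of all 980547 sites tested. Of these, 2485 were higher and 1256 lower in Tg. The share followed the level, with 2.64% of members below 20%, 21.02% of those from 20% to 80% and 9.40% of those above 80%, and sites within 1000 bp of a start, the bulk of the background, were below 20% in 98.7% of cases. Intergenic sites had 7.38% called and coding-exon sites 8.29%. Of the calls, 66.4% were higher in Tg among intronic sites, 63.9% among intergenic, 62.7% among coding-exon and 53.9% among all sites. The overdispersion model, which adds a dispersion between animals to each site, called 0 members, beside 0% of all sites. Its smallest adjusted p among members was 0.422, and 3075 of them (7.54%) had an unadjusted p under 0.05, beside 10.9% of all sites. limma on logit levels also called 0, with 3114 members (7.64%) at an unadjusted p under 0.05, beside 5.19% of all sites. The median dispersion of the called members was 3.67, where 1 is counting error alone. All 4 Wt animals lay on 1 side of all 8 Tg animals at 69 members (0.169%), beside 0.0709% of all sites, and 56 of the 69 were among the binomial calls.

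Most binomial calls were higher in Tg in each fit that left out 1 animal, but the numbers moved with single libraries. Without Wt female 1 there were 5132, of which 3955 were higher in Tg, and without the library labelled Wt male there were 2943, of which 1705 were higher. Calls over the sites of all contexts were not counted in these fits, so whether these shifts are particular to introns was not tested. For 915 called members the cytosine on the opposite strand was a member too, and it had the same sign in 542 cases (59.2%) and was itself called in 176. Over the 8049 CpGs with both strands, 93 had a difference of 10 points or more with the same sign on each strand, 71 of them higher in Tg, and 57 had differences of that size with opposite signs. Matching strand counts for the CpGs of all contexts are not given here, so these are no result particular to introns.

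Summed over stretches, the binomial model called 297 of 4103 (7.24%), with 211 higher and 86 lower in Tg, beside 3.07% of the 32489 stretches of all contexts. The overdispersion model called 0, beside 0% of all stretches, with a smallest adjusted p of 0.680 and 206 stretches (5.02%) at an unadjusted p under 0.05. Without Wt female 1 the binomial model called 554, of which 471 were higher in Tg. Calls over the stretches of all contexts were not counted in this fit. The overdispersion model then called 1, a stretch of 13 sites in intron 4 of the kinase gene Nuak1 (chr10:84392201-84392478, adjusted p = 0.0883), named after its values were seen. There Wt female 1 had 37.2%, the other Wt animals 20.2% to 22.4% and the Tg animals 30.8% to 36.7%, and with all animals its adjusted p was 0.848. A difference of at least 25 points was reached by 1 binomial stretch, 4 sites in intron 3 of Camk2b, a synaptic kinase gene (chr11:6006337-6006423), also named after its values were seen. Wt animals averaged 37.1% ± 25.5 (SD, n = 4) and Tg animals 72.8% ± 15.1 (SD, n = 8), with Wt female 2 at 68% inside the Tg range of 51.2% to 100%. Its adjusted p in the overdispersion model was 0.842.

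The stretches of at least 5 sites with the smallest overdispersion p had adjusted p-values of 0.735 to 0.816, and none passed the test. They were selected by that p, so their values are a description. Levels of Wt and Tg did not overlap at 10 of the 4103 intronic stretches, beside 94 of the 32489 stretches of all contexts. In Gm20388 (chr8:124070609-124070691, intron 1) the Wt animals had 4.01%, 7.41%, 4.97% and 5.49%, in the order of females 1 to 3 and the library labelled Wt male. The Tg animals had a lowest level of 8.12%, a median of 13.03% and a highest of 20.7%, so that the groups did not overlap. The serotonin receptor gene Htr1f had, in a repeat of intron 2 (chr16:65062019-65062111), Wt levels of 98.8% ± 1.34 (SD, n = 4) against Tg levels of 89.3% ± 4.80 (SD, n = 8), and both groups had an animal at 97.6%. In the first intron of Rfx2, a transcription factor gene of ciliated cells (chr17:56814464-56814822), the levels were 3.31% ± 1.13 and 4.98% ± 1.15. A repeat in intron 4 of Cep192, a centrosome gene on chromosome 18, had 85.0% ± 5.29 and 95.5% ± 2.30, and its groups did not overlap. It held 6 sites, all on the plus strand, with 60 to 190 reads per animal over the stretch. The Gm805 stretch (chr12:86189955-86189997), whose groups did not overlap either, was the lower in Tg, with 19.3% ± 4.87 and 9.54% ± 2.74. Gm43584 had 2.76% ± 1.52 in Wt and 1.05% ± 0.354 in Tg over 43 sites, with Wt female 2 at 0.730% inside the Tg range, and Ccdc192 had no methylated read in any Wt animal and 2.15% ± 1.498 in Tg, with 1 Tg animal at 0 too.

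Of the 93 CpGs with a difference of 10 points or more with the same sign on each strand, 4 had strand-summed levels that did not overlap between genotypes. These 4 were selected for that, so their values are a description. CpGs with smaller differences are not among them, and the matching share over the CpGs of all contexts is not given here. At Hspg2 (chr4:137503050-137503051) the 4 Wt levels were 38.1%, 47.0%, 44.4% and 52.3%, in the order of females 1 to 3 and the library labelled Wt male. The Tg animals had a lowest level of 13.04%, a median of 20.6% and a highest of 36.4%, over 35 to 111 reads per animal. The strands differed by -11.6 points on the plus and -28.8 on the minus strand, and the stretch around it overlapped between groups, with Tg male 3 at 38.6%. At Gm805 (chr12:86189981-86189982) the Wt levels were 26.8%, 25%, 21.9% and 33.3%, and the Tg levels were 5.56% to 17.6% with a median of 11.9%. At Rnd3 (chr2:51140699-51140700) Wt female 1 had 60.5%, the other Wt animals 26.9% to 38.2% and the Tg animals 10.6% to 23.9%. These 3 CpGs were lower in Tg, whereas Adamtsl2 (chr2:27088468-27088469) was higher, with 8.25%, 5%, 3.81% and 8.42% in Wt and a lowest of 11.1%, a median of 16.5% and a highest of 46.7% in Tg, the last in Tg female 1. The adjusted p of the overdispersion model was 0.339 at Hspg2, Gm805 and Adamtsl2 and 0.343 at Rnd3, fitted over 327012 CpGs of all contexts. It called 0 of the intronic ones.

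**Figure D5:**
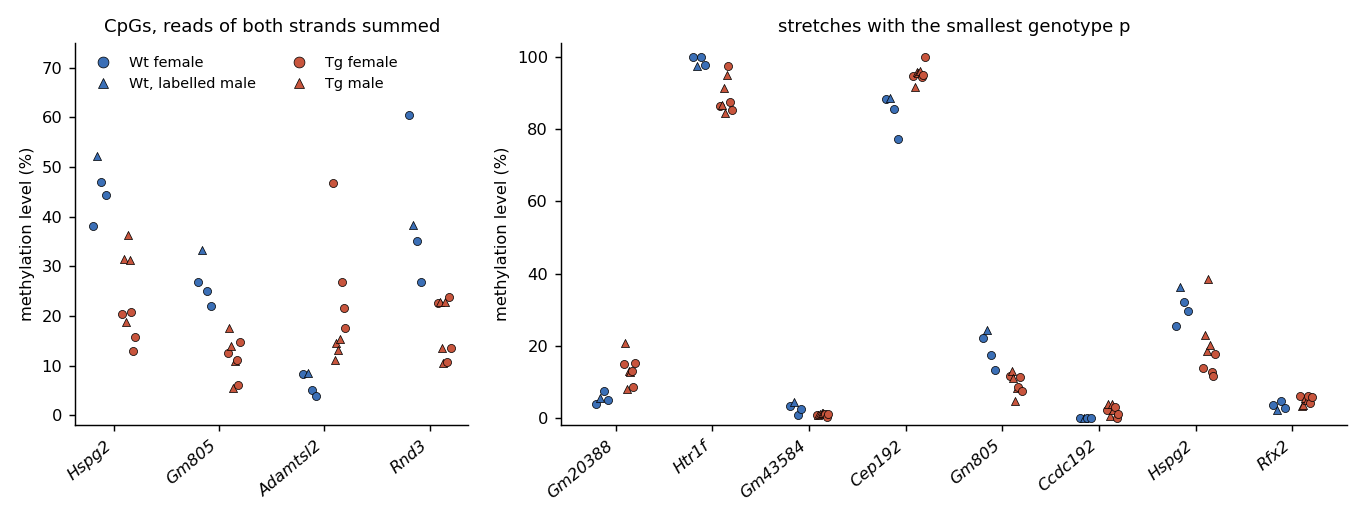
Methylation level (%) by animal at the 4 intronic CpGs with groups apart (left, both strands summed) and at the 8 intronic stretches with the smallest genotype p (right), blue Wt, red Tg, circles labelled female, triangles labelled male. At Hspg2 on the left the lowest Wt value is 38.1% and the highest Tg value 36.4%, and none of the items passes the overdispersion model.

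By gene list, the binomial calls were as follows. Synaptic adhesion and scaffold genes had 34 of 545 sites called (6.24%), 29 of them higher in Tg, extracellular matrix and collagen genes 49 of 329 (14.9%), 33 higher, and secretion genes 18 of 112 (16.1%), 11 higher, all beside 9.18% of members. The neuron list had 14 of 351 (3.99%) and the imprinted list 22 of 479 (4.59%), of which Kcnq1 had 11, with 10 lower in Tg. Oligodendrocyte, microglia, astrocyte and endothelium lists had 2, 2, 0 and 0 called sites. The 9.18% is not matched for level, and calls were rarest among members below 20%. Of the matrix and secretion sites 26.1% and 37.5% were below 20%, against 56.8% of members. In the neuron and imprinted lists 75.8% and 82.3% were. Whether the called share of a list differs from that of members at the same level was not tested. Over all 2000 genes with at least 5 sites, the median difference of gene means was 0.506 points, and 1205 genes were higher in Tg. By list it was 1.92 points for matrix (21 genes, 14 higher) and 1.65 for synaptic genes (15 genes, 13 higher). Imprinted genes had 1.47 points (12 genes), neuron genes 1.34 (4 genes) and secretion genes 0.542 (9 genes). Endothelium, oligodendrocyte and microglia lists, with 3, 2 and 1 such genes, had 1.08, -0.292 and -5.01 points. Without Wt female 1, an alternative chosen after seeing the data, the matrix, synaptic, secretion and imprinted medians were 4.04, 3.14, 2.66 and 1.77 points. The median of all genes was then 1.57 points, with 1462 genes higher in Tg. Without both Wt female 1 and Tg female 1 these 4 lists had 3.46, 2.74, 2.01 and 1.57 points, and all genes 1.27. The binomial calls make no allowance for the spread between animals.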

How the data were processed

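DNA methylation was measured by classic RRBS in 12 mouse brains, 1 library each. The files deposited by the authors hold read counts per cytosine (coverage, reads with C and reads with T, smallest coverage 10). Reads were aligned to mm10 and methylation was called with Bismark by a sequencing service, and the authors imported the alignments into methylKit (versions not given in the sources used here). Duplicate reads cannot be told apart in RRBS without molecular identifiers, so counting error is understated.

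Sites with 10 or more reads in all libraries were kept, 11 positions listed more than once were dropped, and both strands were kept apart. Contexts came from the GENCODE vM21 basic set, and a comprehensive set of the same release served as a check. A site's level is 100 times its reads with C over its coverage, a mean level averages sites, and a pooled level sums the reads of all animals. Genotype was tested per site, and per stretch of at least 3 sites with gaps of at most 300 bp, by logistic regression on genotype and sex. The binomial model used a likelihood-ratio test, and the overdispersion model used an F test with a dispersion never below 1. Both were adjusted by Benjamini-Hochberg over all sites or stretches of the series and called at an adjusted p under 0.1 with a read-weighted difference of at least 10 points, after the study's thresholds. Mean levels were compared by exact permutation over animals (4 against 8, smallest possible p 0.00202) and contexts by exact sign-flip tests over 12 animals. limma was run on logit levels as an alternative. The models were run on simulated data with known changes larger than the threshold of 10 points. Their power at that threshold was not measured.

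The members and lists were chosen with earlier results of these data known. Genes were named by rule: the 8 with the most sites, the 8 stretches of at least 10 sites with the lowest level, the 6 at 35% to 65% with the smallest SD, the 6 with the largest SD, the 8 of at least 5 sites with the smallest overdispersion p, the CpGs with both strands changed alike by 10 points or more and groups apart, and list genes with at least 5 sites, at most 4 a list. Of the lowest stretches, 1 is not reported here. The labels number no replicates, so animals were numbered by accession order. Whether p-values reflect animals from separate litters is not given, and they measure only the spread between these samples. Python 3.11.15, numpy 2.4.6, pandas 2.3.3, scipy 1.17.1, samtools 1.23.1, R 4.3.3 and limma 3.58.1 were used.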

Additional observations from a re-analysis of the deposited data

Results flagged for a closer look

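Within genotype and for each value of the report, an animal was marked when its gap to the nearest other animal took an unusually large share of the group's range (Dixon's criterion). Of 136 groups of values 20 were marked (14.7%). The criterion marks about 1 in 20 by chance, but that rate is no baseline here. Many of the values belong to stretches or CpGs chosen for their spread, level or separation, and the groups share animals and sites. In most of the marked groups the animal was Wt female 1 or Tg female 1. Wt female 1 stood apart in the mean intronic level (30.969%), the mean intergenic level (31.392%), the mean over intronic sites at a pooled 20% to 80% (51.409%), the Gm20388 gene (31.537%), the stretches of Eya2 (66.667%) and Galnt7 (79.825%), and the genes Rph3al (43.503%) and Phactr2 (39.916%). Tg female 1 stood apart in the mean intronic level (30.697%), the sites at 20% to 80% (50.756%), the stretches of Rbfox3 (29.539%, the lowest Tg value), Btc (76.125%), Vstm2a (90.244%) and Galnt7 (72.464%), and the Adamtsl2 CpG (46.667%).

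Other animals were marked in 5 groups. Wt female 3 had 0.35026% at the Tjp1 stretch, where the other Wt animals had no methylated read. The library labelled Wt male had 1.2645% at the Sh3d19 stretch. Tg female 2 had the lowest Tg level at the Zfr2 stretch (35.014%), Tg male 3 the highest at the Hspg2 stretch (38.554%), and Tg female 3 the lowest in the Ptprs gene (18.27%).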

How the results depend on the processing

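The Tg minus Wt difference of the mean intronic level ranged from -0.00298 to 1.79 points when 1 animal was left out, and was 1.39 points in the 10 animals without Wt female 1 and Tg female 1, an alternative chosen after seeing the data. Weighted by reads it was 1.595 points. The leave-out settings gave 0.130 to 0.613 and 0.529 points for the genotype difference of intronic minus intergenic level. Intronic minus intergenic level turned positive with a minimum of 20 reads (0.525 points), as a median over sites (2.60), with both strands summed (1.87) and outside repeats (3.24), and intronic minus coding-exon level was -0.0104 points with 20 reads and 38.0 inside repeats. By distance, the latter was -1.08 points over 2000 bp from a start and -11.8 over 10000 bp. Leaving out an animal kept the 2 context differences within -1.30 to -1.17 and -5.46 to -5.33 points. Binomial calls among sites were 193 at 25 points, 8515 with no minimum difference, 333 with 20 reads and 279 with strands summed, and 2943 to 5132 without 1 animal. Among stretches they were 1 at 25 points, 1878 with no minimum, 25 with 20 reads, 6 with at least 10 sites, 535 in the 7 animals labelled female and 285 to 554 without 1 animal. All of these counts are of intronic features, and calls over all contexts were not counted in these settings. A minimum of 20 reads, summed strands and at least 10 sites leave fewer features to call, and for the other shifts the cause was not tested. The overdispersion model called 0 sites in every setting run and 0 to 1 stretches without 1 animal. Taking the library labelled Wt male as female, also chosen after seeing the data, gave 2916 sites and 282 stretches. Genotypes could not be paired because the labels match no Wt animal to a Tg animal. Depth limits single sites, where at 10 reads a single read is worth 10 points.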
